A study of Rattus norvegicus with 4 samples.

Results

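The genes described here are 10 genes of prostaglandin and leukotriene synthesis in NR8383, an alveolar macrophage line obtained from a normal rat by lung lavage. They are Pla2g4a, Ptgs1, Ptgs2, Ptges, Ptges3, Tbxas1, Alox5, Alox5ap, Lta4h and Ltc4s. They were chosen by name, and every array probe whose accession matched 1 of them was taken. This gave 12 probes and 32 spots, out of 45598 gene probes and 16581 named genes. All 10 genes were on the array, Ptgs1 and Tbxas1 with 2 probes each and the others with 1. The cells had been exposed for 4 h to titanium dioxide of the NM105 type (P25, anatase and rutile) at 3 cm2 of particle surface per cm2 of culture. The study set such cultures against untreated ones. Here 4 exposed cultures (replicates 1 to 4) of the 1 cell line form the only group; untreated ones were not analysed here. No value below is therefore a response to the particles. Cells had been through 20 passages and were grown with 15% serum in 25 cm2 flasks. The replicates are cultures of a line and not separate animals.

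Eicosanoids are lipid mediators made from arachidonic acid, which phospholipases cut from membrane phospholipid. Cyclooxygenases turn arachidonate into prostaglandin H, and terminal synthases turn that into prostaglandins or thromboxane. In the other branch 5-lipoxygenase, with its membrane partner FLAP, makes leukotriene A, which is then hydrolysed to the neutrophil attractant leukotriene B or joined to glutathione as a cysteinyl leukotriene. Alveolar macrophages are known as a source of both kinds of mediator.

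Of the 10 genes, 5 gave signal well above background on each of the 4 arrays (Ptgs1, Ptges3, Tbxas1, Alox5 and Lta4h), Pla2g4a was on 1 array, and 4 were on none (Ptgs2, Ptges, Alox5ap and Ltc4s). Among all 16581 named genes, 35.2% were detected on all 4 arrays. Detection is the scanner software's call for each spot. A gene given as not detected may still be expressed below that limit. In RNA from whole cultures, fewer cells with a transcript and less of it in each cell cannot be told apart. At 3 steps of the pathway, 1 enzyme of a pair that works on the same substrate was detected and the other was not. These pairs are the cyclooxygenases Ptgs1 and Ptgs2, the prostaglandin E synthases Ptges3 and Ptges, and the enzymes that use leukotriene A, Lta4h and Ltc4s. The pairs were drawn from the 10 genes alone, and no share of such split pairs among other genes was taken for comparison. Ptgs1 was detected by 1 of its 2 probes. Outside the 10, Ptges2, a further prostaglandin E synthase, and Mgst2, which can make cysteinyl leukotrienes, were detected on all 4 arrays.

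To show how the genes of these pairs differ in sequence, the 250 bases before the start of each are printed below from RefSeq on GRCr8, on the gene's own strand. The array design names rn4 as its build, and no array value was placed by coordinates. Capitals mark matches on either strand to 4 motifs, and no matches overlapped. The GC box was searched as GGGCGG. The E-box was searched as CACGTG. The TATA box was searched as TATAAA. The core bound by the myeloid factor PU.1 was searched as GAGGAA. Ptgs1 lies at chr3:39981169-39981418 (plus strand), Ptgs2 at chr13:64713813-64714062 (plus strand), Ptges3 at chr7:1075059-1075308 (plus strand), Ptges at chr3:34586988-34587237 (minus strand), Lta4h at chr7:29856621-29856870 (plus strand) and Ltc4s at chr10:35063595-35063844 (minus strand).
Ptgs1: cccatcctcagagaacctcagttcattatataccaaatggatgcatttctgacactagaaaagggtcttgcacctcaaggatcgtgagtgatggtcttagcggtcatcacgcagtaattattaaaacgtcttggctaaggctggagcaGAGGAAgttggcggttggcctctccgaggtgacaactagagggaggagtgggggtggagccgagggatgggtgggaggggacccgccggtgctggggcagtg
Ptgs2: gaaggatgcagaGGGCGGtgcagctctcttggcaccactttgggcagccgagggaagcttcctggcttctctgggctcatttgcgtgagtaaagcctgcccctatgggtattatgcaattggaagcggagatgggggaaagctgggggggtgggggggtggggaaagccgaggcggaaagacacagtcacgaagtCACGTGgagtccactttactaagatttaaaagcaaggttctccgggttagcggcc
Ptges3: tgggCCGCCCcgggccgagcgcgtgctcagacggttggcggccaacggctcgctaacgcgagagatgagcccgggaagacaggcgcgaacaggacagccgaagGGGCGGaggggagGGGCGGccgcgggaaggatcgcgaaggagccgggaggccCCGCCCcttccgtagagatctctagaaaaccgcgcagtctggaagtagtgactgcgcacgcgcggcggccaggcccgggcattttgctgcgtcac
Ptges: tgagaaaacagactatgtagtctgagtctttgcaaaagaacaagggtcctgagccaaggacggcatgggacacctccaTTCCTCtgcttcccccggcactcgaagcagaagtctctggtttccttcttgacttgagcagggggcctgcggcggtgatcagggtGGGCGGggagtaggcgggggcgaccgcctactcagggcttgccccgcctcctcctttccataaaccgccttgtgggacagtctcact
Lta4h: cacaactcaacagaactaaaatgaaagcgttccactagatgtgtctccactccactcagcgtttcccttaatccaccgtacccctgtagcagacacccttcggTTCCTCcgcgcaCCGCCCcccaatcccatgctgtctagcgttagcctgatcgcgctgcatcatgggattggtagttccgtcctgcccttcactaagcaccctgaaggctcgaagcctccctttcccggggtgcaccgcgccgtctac
Ltc4s: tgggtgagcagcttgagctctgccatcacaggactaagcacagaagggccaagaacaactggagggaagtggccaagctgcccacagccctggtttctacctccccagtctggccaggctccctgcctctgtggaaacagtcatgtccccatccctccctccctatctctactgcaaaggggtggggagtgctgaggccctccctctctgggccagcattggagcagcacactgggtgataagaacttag

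The upstream sequence of Ptges3 stood out by base composition, with 70.4% G and C, 33 CpG dinucleotides and 4 GC boxes. Over 33469 promoters of the same table, the median was 51.2% G and C and 5 CpG. Its partner Ptges had 58.8% G and C, 11 CpG, 1 GC box and 1 PU.1 core at base 172. Ltc4s had the same 58.8% but no CpG and none of the 4 motifs, while Lta4h had 16 CpG, 1 GC box and 1 PU.1 core. Ptgs1 (54.4% G and C, 9 CpG) held 1 PU.1 core at base 102 before the start. Ptgs2 (57.2%, 10 CpG) held the only E-box of the 6, at base 55, and 1 GC box at base 238. Of all promoters 30.5% held a GC box, 5.59% the E-box, 12.9% the TATA box and 23.3% the PU.1 core. The matches are a description of these letters and show no binding. Upstream sequence was matched for 9 of the 10 genes, and Alox5ap was the other. Of those not printed, Alox5 held 1 GC box at base 61, Tbxas1 2 PU.1 cores and 1 TATA box, and Pla2g4a 1 TATA box.

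The arrays differed in brightness. Each array was scaled to a reference, its 75th percentile among 10438 commonly detected probes. It lay at 1430.6 intensity units on replicate 1 and 585, 767.1 and 831.1 on replicates 2 to 4. The 99th percentile of negative controls was alike, from 5.07 to 5.96 units. Intensities below are unscaled. Levels are log2 intensity relative to the array's own reference, given as mean ± SD over the 4 arrays. Each probe has its own brightness, so values place a probe on different arrays and do not rank genes. The label was checked against markers: 9 of 12 macrophage markers were detected on all 4 arrays, Cd68, Csf1r, Itgam and Cd14 among them, and Adgre1 and Cd74 on none. Of 7 measured alveolar macrophage markers 5 were detected on all 4, with Marco and Car4 on none.

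**Figure D1:**
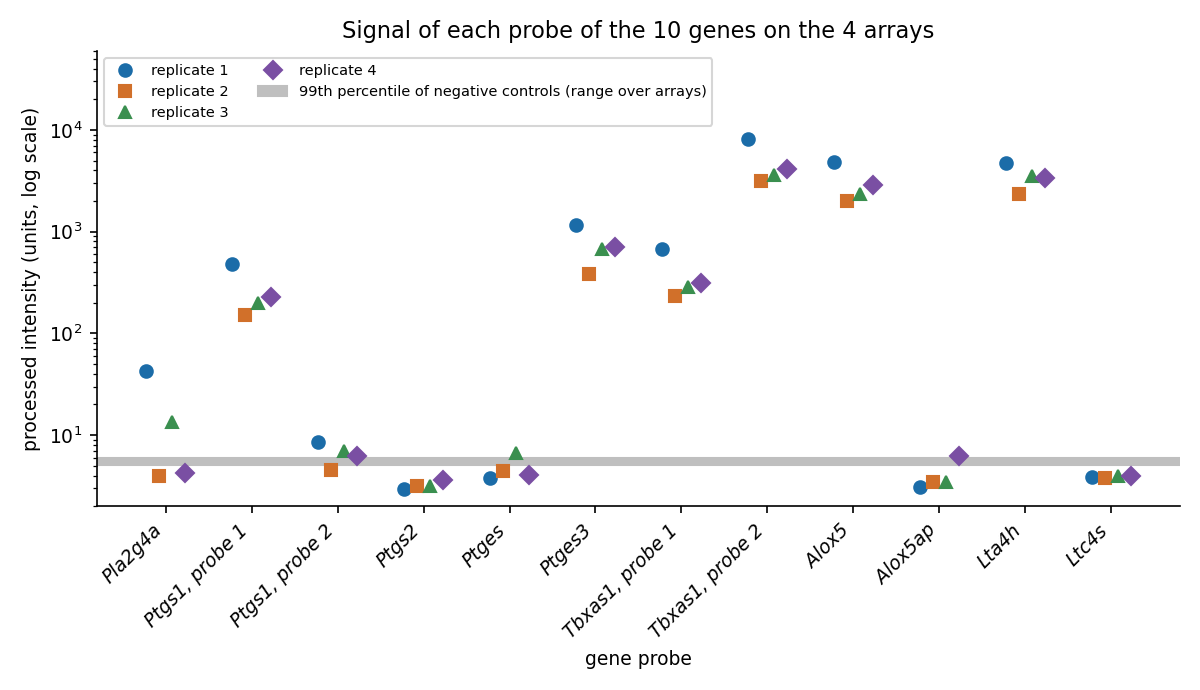
Processed intensity (log scale) of the 12 probes of the 10 genes, with 1 point for each of the 4 arrays; the grey band spans the arrays' 99th percentiles of negative controls, 5.07 to 5.96 units. The 6 detected probes lie between 151.0 and 8118 units, while the probes of Ptgs2 and Ltc4s lie below the band on all 4 arrays.

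Release of arachidonate came first. Pla2g4a encodes cytosolic phospholipase A2 alpha, which frees arachidonic acid from membranes when calcium rises. Its probe was at 42.8, 3.959, 13.4 and 4.263 units on replicates 1 to 4. Replicate 1 alone was called well above background, and replicate 3 also passed the software's weaker test of a positive and significant signal. The software's error of these signals was 5.54, 3.97, 4.13 and 4.29 units, so the values on replicates 2 and 4 did not exceed their own error. Replicate 1 was also the brightest array. Relative to each array's reference, the probe was at −5.06, −7.21, −5.84 and −7.61 on replicates 1 to 4. A level of −5.06 stands for 17.5, 23.0 and 24.9 units on replicates 2 to 4. The lowest gene spots called well above background there had 15.49, 15.87 and 17.7 units. The part of array brightness in the call, which rests on 1 spot on each array, was not tested.

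The cyclooxygenases differed in detection. Ptgs1 encodes COX-1, the form made constitutively in most cells. Its brighter probe, at 2 spots, gave 478.8, 151.0, 196.8 and 228.7 units on replicates 1 to 4. Replicate 1 was highest and replicate 2 lowest, as for the arrays' reference. On the scaled axis it was at −1.84 ± 0.18 (n = 4), highest on replicate 1 at −1.58 and between −1.96 and −1.86 on the others, although replicate 2 was the highest after normexp correction. The 2 spots of this probe lay at −1.77 and −1.39 on replicate 1, and between −2.05 and −1.84 on the other arrays. The other probe of Ptgs1 was not well above background on any array, at 8.541, 4.558, 6.999 and 6.22 units. By that call the 2 probes of this gene disagree. The dimmer probe did pass the weaker test of a positive and significant signal on all 4 arrays. On replicates 1, 3 and 4 it was also above the negative controls' 99th percentile (5.62, 5.07 and 5.96). Which transcript form each probe meets is not in the files used here.

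Ptgs2 encodes COX-2, the inducible form known as an early target of inflammatory signals in macrophages. Its only probe gave 2.93, 3.16, 3.17 and 3.61 units. All 4 values were below the negative controls' 99th percentile and none passed the positive and significant test. With 1 spot on each array, and no untreated cultures, the values show only that this probe gave no signal above background in the exposed cells.

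Among the terminal synthases, Tbxas1 encodes thromboxane synthase, a P450 enzyme, and both of its probes were detected on all arrays. Its 2 probes gave 8118, 3168, 3632 and 4086 units, and 682.2, 234.2, 287.0 and 316.0 units. Scaled, the brighter was at 2.37 ± 0.12 and the dimmer at −1.30 ± 0.16 (n = 4 each). Both were highest on replicate 1 and lowest on replicate 3, with ranges of 0.26 and 0.35. The order at the top was not stable, since replicate 2 was the highest after normexp correction, with the median of detected probes as reference and with the 75th percentile over all probes. Replicate 3 was the lowest in all these settings.

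Ptges3 and Ptges both carry prostaglandin E synthase in their names. Ptges3 encodes p23, a cochaperone of HSP90 that also has cytosolic synthase activity. Its probe, printed at 10 spots, gave 1157, 383.5, 679.5 and 704.7 units. It was at −0.33 ± 0.19, with replicate 2 lowest at −0.61 and the others between −0.31 and −0.17. Ptges encodes the inducible microsomal synthase that is coupled to COX-2 in macrophages. Its probe gave 3.80, 4.43, 6.72 and 4.01 units, and only replicate 3 was above the negative controls' 99th percentile.

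The leukotriene branch was split between its detected and undetected genes. Alox5 encodes 5-lipoxygenase. Its probe, at 2 spots, gave 4844, 1979, 2363 and 2879 units. Scaled, it was at 1.76, 1.76, 1.62 and 1.79, which is 1.73 ± 0.08 (n = 4). This was the smallest SD of the 5 detected genes. Of the 5824 genes with a probe detected on all 4 arrays, at any level, 3.9% had a lower one. No such share was taken over genes near the level of Alox5 alone. The rank among the 5 was not stable. After normexp correction the SD was 0.102, against 0.062 for Ptgs1. Without replicate 1 it was 0.089, against 0.057 for Ptgs1, and without replicate 2 it was 0.098, against 0.061 for Ptges3. It stayed the smallest with the other scalings and without replicate 3 or 4. Alox5ap encodes FLAP, the membrane protein that hands arachidonate to 5-lipoxygenase in cells. Its only probe, at 1 spot, gave 3.12, 3.43, 3.46 and 6.18 units. Replicate 4 lay just above its array's 99th percentile of negative controls (5.96) and was not called well above background.

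Leukotriene A has 2 users among these genes. Lta4h encodes the hydrolase that makes leukotriene B. Its probe, at 10 spots, gave 4747, 2344, 3497 and 3396 units, or 1.73, 2.00, 2.19 and 2.03 scaled, which is 1.99 ± 0.19 (n = 4). Replicate 1 was lowest and replicate 3 highest. Ltc4s encodes the synthase of cysteinyl leukotrienes, a membrane enzyme of the same MAPEG family as FLAP and the microsomal prostaglandin E synthase. Its probe gave 3.88, 3.80, 3.97 and 3.98 units, below the negative controls' 99th percentile on all arrays. None of the 3 MAPEG members Ptges, Alox5ap and Ltc4s was detected on any array. This is not a trait of the family, since Mgst1, Mgst2 and Mgst3 were detected on all 4 arrays. Ptges, Alox5ap and Ltc4s have 1 probe each, so a probe that hybridises poorly and a low transcript cannot be told apart.

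**Figure D2:**
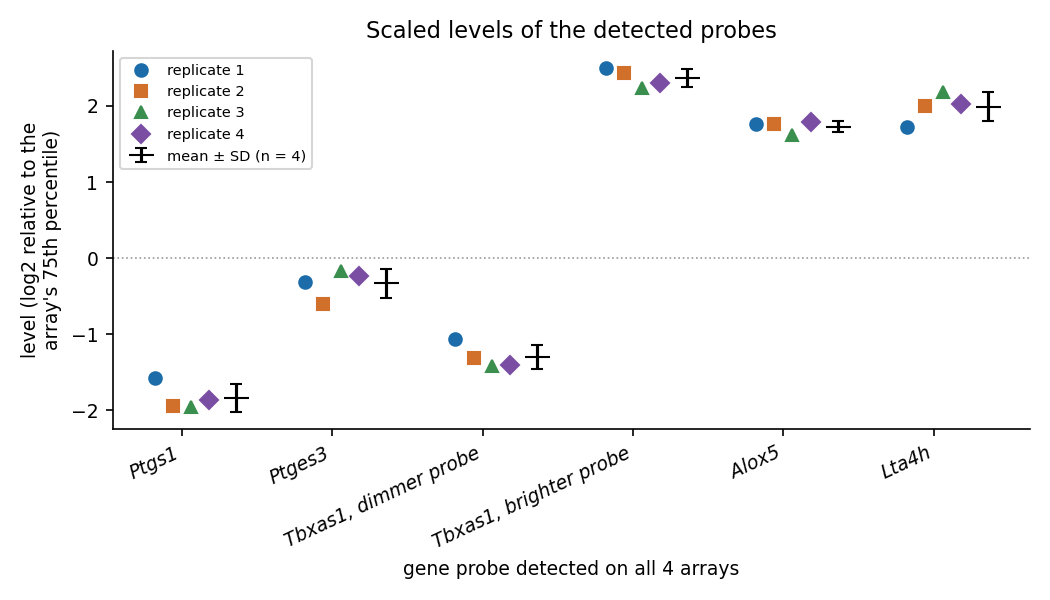
Level (log2 relative to the array's own 75th percentile) of the 6 probes detected on all 4 arrays, 1 point for each array, with mean ± SD (n = 4) in black. Within a probe the 4 arrays lie at most 0.46 apart (Lta4h), and the order of the arrays differs between probes.

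The scaled spread of the detected genes was near that of other genes at the same levels. The median SD of the 5 genes was 0.179 (log2), from 0.075 for Alox5 to 0.192 for Ptges3. Over all 5824 detected genes it was 0.225, and over the 2462 genes within the members' range of mean level it was 0.191. Without replicate 1 the members' median SD was 0.099, while that of detected genes at all levels was 0.189. No median over genes at the members' levels was taken in that setting, so this pair is not matched by level.

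**Figure D3:**
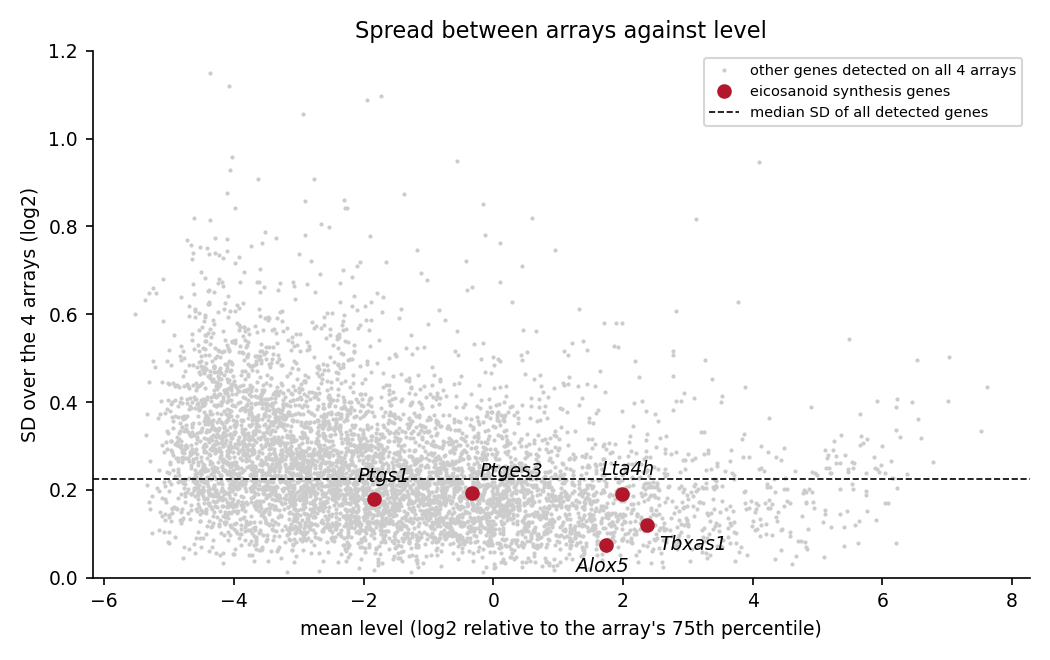
SD over the 4 arrays (log2) against mean level (log2 relative to the array's 75th percentile) for each gene detected on all 4 arrays; 4 genes lie above the top of the axis, and the dashed line is the median SD of all detected genes, 0.225. The 5 eicosanoid genes (red) all lie below the line, as do many genes at their levels, where the median SD is 0.191.

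Whether the arrays differed beyond the error between repeated spots could be tested for 4 of the genes, with limma's moderated F across 1594 probes printed at 2 or more spots. The spots of an array share 1 culture's RNA, so the p-values concern arrays, and do not separate culture from labelling or hybridisation. No member reached the call (adjusted p under 0.05 and at least 1.5-fold between the highest and the lowest array), against 27.2% of 871 named genes. By adjusted p alone 84.8% of the named genes passed, and 2 of the 4 members did. The 27.2% are 237 genes, and that count was 92 without replicate 1 and 142 without replicate 2.

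Ptges3 differed by 1.35-fold between replicates 3 and 2 (limma adjusted p = 0.000788). Without replicate 2 its adjusted p was 0.558 and the range 1.09-fold, and over all 11 alternatives the adjusted p ran from 2.94e-09 to 0.558. Lta4h differed by 1.37-fold between replicates 3 and 1 (limma adjusted p = 0.0064). Its adjusted p was 0.0675 after normexp correction and 0.0688 without replicate 3, within a range of 0.000119 to 0.0973. Ptgs1 differed by 1.30-fold (limma adjusted p = 0.0808, range over 10 alternatives 0.0698 to 0.895). Alox5 differed by 1.12-fold (limma adjusted p = 0.236, range over 11 alternatives 0.041 to 0.841). It passed by adjusted p under 1 of these alone, scaling over all probes.

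The 10 spots of Lta4h fell into 2 ranges on replicate 1. In columns 7 to 28 of the array's 164 columns, 6 spots lay between 3202 and 3997.9 units, and in columns 62 to 128 the other 4 lay between 6393.1 and 7388.8. The 2 ranges did not overlap, and the mean was 1.84-fold higher in the second. On replicates 2 to 4, where 1 or 2 outlier spots were left out, the same comparison gave 1.04, 1.01 and 1.05. Ptges3 had 3 spots in columns 5 to 31 between 604.7 and 1094.9 units on replicate 1, and 7 in columns 44 to 117 between 1210.0 and 1500.3. That is 1.57-fold, against 0.973, 0.927 and 0.993 on replicates 2 to 4. Ptgs1 had 1 spot in column 37 and 1 in column 140. The second was at 1.3 times the first on replicate 1, and at 0.877, 0.959 and 0.973 times on replicates 2 to 4.

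Why the spots differed was not tested. With only the spots in columns above 41, a limit set after these values were seen and one that leaves out the 6 low spots, Lta4h was at 2.14, 1.94, 2.08 and 1.97 on replicates 1 to 4. Leaving out those 6 spots fixes the rise of replicate 1, so these levels restate the split and do not test it. The limma adjusted p was 0.0973. In the same setting Ptges3 stayed lowest on replicate 2, at −0.74 against −0.35 to −0.23 on the others (limma adjusted p = 2.68e-07). Its highest array became replicate 1 in place of replicate 3. The column limit also leaves out the 3 spots of Ptges3 that were lowest on replicate 1. Leaving them out raises replicate 1 and narrows the range of its spots. The new order and the smaller adjusted p are therefore no test either.

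**Figure D4:**
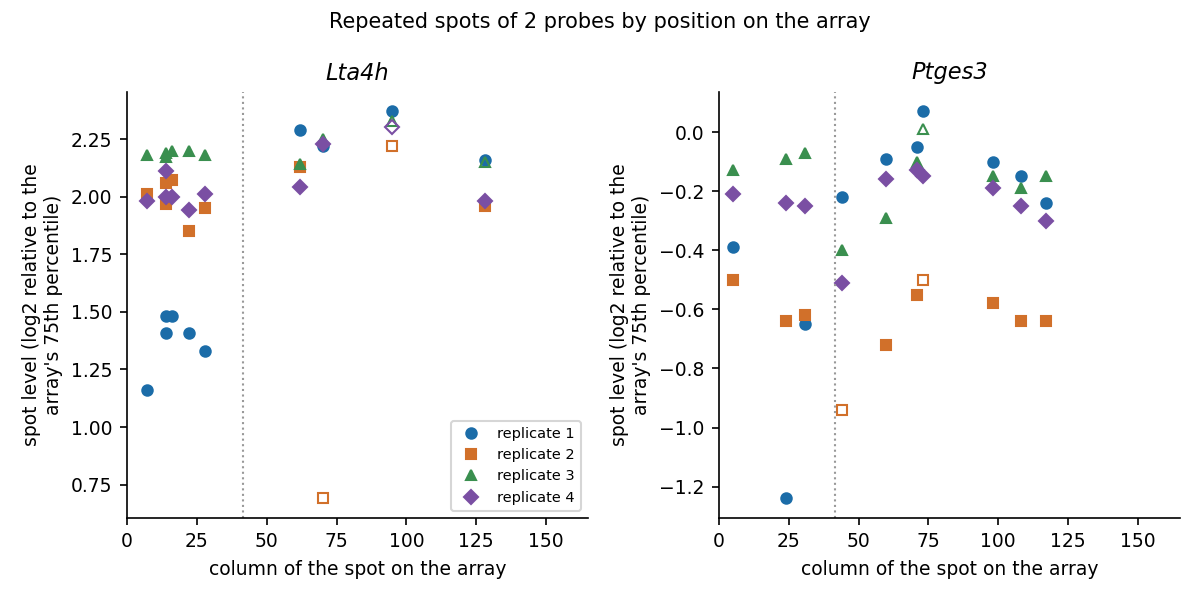
Level of each spot (log2 relative to the array's 75th percentile) of the Lta4h and Ptges3 probes against its column on the array, by replicate; open symbols are outlier spots left out of the values, and the dotted line is at column 41. On replicate 1 the spots left of the line lie below those right of it for both probes.

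The rest of the pathway was described through 8 lists of 89 other genes, of which 86 were measured. Of these, 39 (45.3%) were detected throughout, 9 on 1 to 3 arrays and 38 never. Over all named genes 35.2% were detected throughout. Phospholipases other than Pla2g4a were detected in part, 5 of 11 on all arrays. They were the calcium-independent enzyme Pla2g6 (−1.95 ± 0.31), the secreted enzyme Pla2g3 (−4.85 ± 0.24), the platelet-activating factor hydrolase Pla2g7 (0.90 ± 0.21), the lysosomal enzyme Pla2g15 (0.80 ± 0.32) and Plaat3. Pla2g3 lay near the detection limit, at −4.87 on replicate 2. There a level of −5.06 stands for 17.5 units, and the lowest gene spot called well above background had 15.49. The secreted enzymes Pla2g1b and Pla2g2a were detected on none.

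Of 13 genes of arachidonate supply and its return to phospholipid, 7 were detected throughout, 2 in part and 4 never. Among them were the acyl-CoA synthetases Acsl1 (−1.87 ± 0.23) and Acsl5 (−0.32 ± 0.21) and the lysophospholipid acyltransferases Lpcat2 (−2.65 ± 0.13) and Lpcat3 (−0.22 ± 0.26). The others on all arrays were Mboat7, Mgll and Daglb. The desaturases Fads1 and Fads2, which make arachidonate from shorter precursors, were detected on none.

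Other prostanoid synthases were detected for 3 of 7 genes. Ptges2, a further prostaglandin E synthase, was at −2.79 ± 0.26, Prxl2b, a prostaglandin F synthase, at −2.94 ± 0.17, and the carbonyl reductase Cbr1 at 1.23 ± 0.16. Both prostaglandin D synthases, Ptgds and Hpgds, were detected on none. Of 6 further lipoxygenases none was detected on all arrays: Alox12b and Aloxe3 were on 1 array each, and Alox12, Alox12e, Alox15 and Alox15b on none. The 3 microsomal glutathione transferases of the MAPEG family were detected on all 4. Mgst1 was at 0.92 ± 0.03, Mgst3 at 0.45 ± 0.21 and Mgst2, which can itself make cysteinyl leukotrienes, at 1.14 ± 0.38.

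Genes of breakdown and transport were detected on all arrays for 6 of 16. These were the prostaglandin and leukotriene reductase Ptgr1 (−1.97 ± 0.10), the exporters Abcc1 (−2.55 ± 0.15) and Abcc4 (−2.97 ± 0.23), the P450 gene Cyp4f6 (−2.84 ± 0.24), Dpep2 and Ephx1. Abcc1 and Abcc4 have 2 probes each, of which 1 was detected on all arrays. Ephx1 was near the detection limit on replicates 2 and 4, at −4.9 and −4.8. The prostaglandin dehydrogenase Hpgd was detected on none, nor was the reductase Ptgr3.

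Of the 8 lists, those of receptors had the smallest share detected on all arrays. Of 9 prostanoid receptors 2 were detected on all 4 arrays, the prostaglandin E receptor Ptger2 (−3.08 ± 0.20) and the prostacyclin receptor Ptgir (−3.0 ± 0.37). The prostaglandin D receptor Ptgdr2 was on 3 arrays, and Ptger1 and Ptger3 on none. Of 5 leukotriene and lipoxin receptors none was detected on all arrays, and only Gpr17 on any (2 arrays). Ltb4r and Ltb4r2, the leukotriene B receptors, were on none.

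Regulators of these enzymes were detected for 13 of 16 genes. Coactosin-like Cotl1, which binds 5-lipoxygenase, was at 3.72 ± 0.13. Anxa1, an inhibitor of phospholipase A2, was at 1.57 ± 0.44, and the kinase Mapkapk2 at 1.35 ± 0.20. Also detected were Mapk3, Mapk14, Cebpb, Nfkb1, Rela, Elavl1, S100a10, Hsp90aa1 and Hsp90ab1. For Nfkb1 this holds for 1 of its 2 probes. Zfp36 and Nr4a2 were detected on none.

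**Figure D5:**
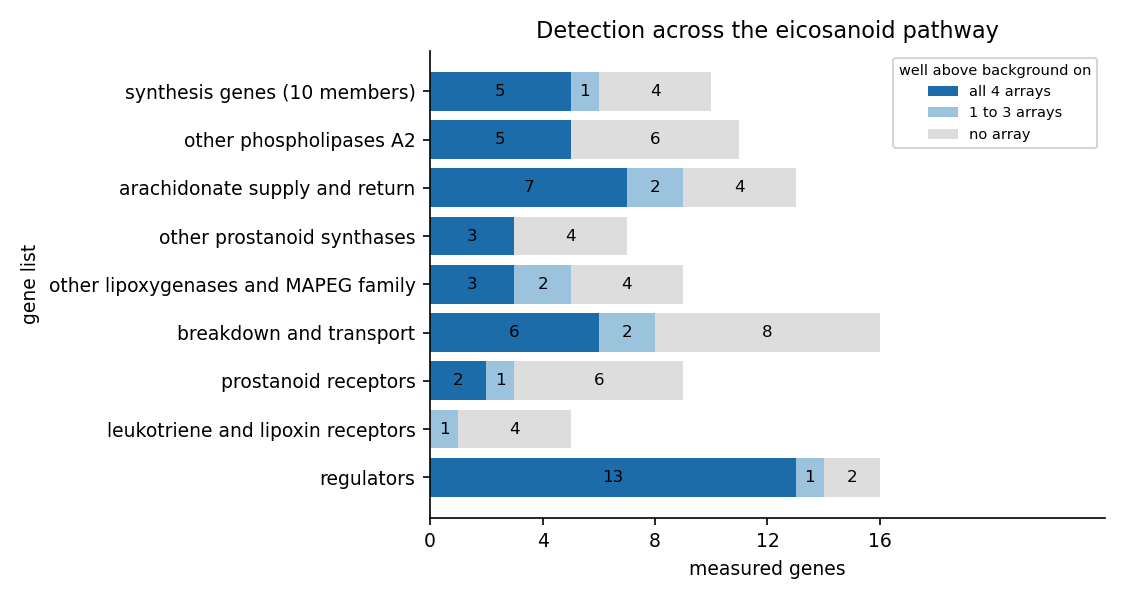
Number of measured genes well above background on all 4 arrays, on 1 to 3 arrays and on no array, for the 10 synthesis genes and 8 lists of other pathway genes. The regulators (13 of 16) have the most genes on all arrays, and the leukotriene and lipoxin receptors have none.

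Of 14 of these pathway genes in the limma test, 4 reached the call, a share like the 27.2% of all genes. Anxa1 was at 2.04, 1.16, 1.24 and 1.84 on replicates 1 to 4 (1.84-fold, limma adjusted p = 2.73e-22). Mgst2 ran from 1.65 on replicate 1 to 0.75 on replicate 4 (1.87-fold, limma adjusted p = 6.13e-20). The tested probe of Pla2g15 differed 1.64-fold (limma adjusted p = 0.000233).

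Markers of other cell types, those that make eicosanoids among them, were mostly not detected. Sums of different probes do not compare between lists, so each is given only for its spread over the arrays. None of 9 measured mast cell and basophil markers was detected on any array, with Kit and Cpa3 among them, and their summed intensity was 43.7 to 50.1 units. Of 6 platelet and megakaryocyte markers, 4 were detected on none, Ppbp and Gp1ba among them. Gp9 was detected on all 4 arrays at −4.97 ± 0.31, near the detection limit, and Pf4 on replicate 1 alone. The summed intensity of the 6 markers was 39.4 to 99.6 units. Of 7 neutrophil and eosinophil markers 6 were detected on none, S100a9 and Elane among them, and S100a8 on 2 arrays, with a sum of 29.4 to 54.8 units. None of 7 epithelial markers was detected, and of 6 fibroblast markers Col1a1 was on 1 array and 5 on none. Whether cells other than macrophages had a part in any value was not tested.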

How the data were processed

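The files hold spot intensity deposited by the authors, made per the file headers with Agilent Feature Extraction 11.0.1.1 (protocol GE1_1100_Jul11, design 074036). Per the file headers, the deposited intensity had its background subtracted and was detrended on each array, with no normalization between arrays. Cy3-labelled RNA of 1 culture went on each array, and all 4 arrays lay on 1 slide, scanned once. No gene spot was saturated.

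Control spots and outlier spots (486 to 723 an array) were left out, and log2 values of a probe's spots were averaged. Since 22.9% of probes were detected on all arrays, levels were set against the 75th percentile over these. A probe was detected when more than 50% of its spots were flagged well above background, a gene when any probe was, and its level was that of its brightest detected probe. Names came from matching accessions to RefSeq (GRCr8, names only): 21109 of 45598 probes matched, and 24489, 6958 with Ensembl transcript names among them, stayed unnamed and may hold further probes of these genes.

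The test across arrays used limma 3.58.1 under R 4.3.3 (Benjamini-Hochberg) and was first tried on simulated data. Python 3.11.15 was used otherwise. There is 1 group, so none were compared. The series' design text calls the replicates biological, and their number limits the precision. The 10 genes, the lists, the named genes (all members, the first 4 detected and first 2 undetected of each list) and the tests were chosen with earlier results of these data known. The motifs and printed sequences were chosen after the values were seen. Alternatives were other background correction, scalings, detection rules, fold minima, spots or probes, and leaving out each replicate. Normexp used the median spot signal, as the mean was not among the columns used here. The values of 1 gene of the regulator list, which is in the counts, are not reported here.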

Additional observations from a re-analysis of the deposited data

Results flagged for a closer look

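None of the 5 members detected on all 4 arrays had 1 array far from the other 3. Of 29 detected members and named pathway genes looked at in this way, 2 had. Mgst3 reached 0.77 on replicate 2, while the other arrays gave 0.36, 0.32 and 0.36. Mapkapk2 was at 1.65 on replicate 2 against 1.24, 1.25 and 1.28 on the others. Over all 5824 detected genes 6.03% had such an array, and chance alone gives about 1 in 20. Replicate 2 was the dimmest array, and its part in these values was not tested.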

How the results depend on the processing

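The 5 members on all 4 arrays stayed 5 under every detection rule and with each replicate left out. The 4 on no array became 2 with signal above the 99th percentile of negative controls and 2 by the positive and significant flag, under which Ptges and Alox5ap passed on 1 or 2 arrays. Without replicate 1 the count was 5, with Pla2g4a added. Among other pathway genes, all changes of the count of 39 were under 1.5 times. The members' median SD of 0.179 was 0.102 after normexp correction with an offset of 50 and 0.364 with dim probes kept (10 genes), and 0.099 to 0.224 with a replicate left out. The count of members differing between arrays, 0, was 2 with no fold minimum (Ptges3 and Lta4h) and 0 in all other alternatives. The count over all genes, 237, was 133 after normexp, 618 with dim probes kept, 739 with no fold minimum, 39 with a 2-fold minimum and 92 to 218 with a replicate left out. The causes were not tested. Pla2g4a rests on 1 spot near the detection limit, and the genes on no array have 1 spot each on each array. No paired analysis was possible because there is only 1 group.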

Other observations

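The split of spots by column seen for Lta4h and Ptges3 was counted over all probes with at least 3 spots on each side of column 41 and every spot well above background. On replicate 1 the mean of the right spots was at least 1.5-fold above that of the left for 37 of 411 probes (9.0%), and the reverse held for 0. On replicates 2, 3 and 4 the counts were 0 of 427, 0 of 445 and 0 of 432, with 1 probe the other way on replicate 4. The median difference on replicate 1 was −0.08 on the log2 scale, so most probes did not share this direction. Over 988 probes with 5 or more spots on replicate 1, the spot SD was above that of Lta4h for 4.25%. The column limit was chosen after the spots of Lta4h were seen, and the cause was not tested.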
